A study of Homo sapiens with 12 samples.

Results

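The genes of bile acid synthesis and of the FGF19 feedback on it, 10 in all, were followed in HepG2, a human hepatoma cell line, after exposure to 2,4-D, a synthetic auxin herbicide. The genes were KLB, FGFR4, FGF19, NR1H4, NR0B2, CYP7A1, CYP8B1, CYP27A1, SLC51A and ABCB11, which were found by symbol as 10 of the 60612 rows of the count table. Polyadenylated RNA was sequenced from cells exposed to 0.001 µM 2,4-D for 10, 30 or 360 min and from untreated cells, called 0 min, with 3 biological replicates each. Untreated cells kept for 10, 30 or 360 min were not analysed here, and exposure and elapsed time therefore cannot be told apart. The line derives from 1 tumour, and its cells were detached with trypsin before RNA extraction.

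Bile acids are made from cholesterol in hepatocytes. CYP7A1 catalyses the rate-limiting step of the classic route, CYP8B1 directs intermediates to cholic acid, and CYP27A1 oxidises the sterol side chain and opens an alternative route. The nuclear receptor FXR, encoded by NR1H4, binds bile acids and induces NR0B2, whose product SHP represses CYP7A1. In the intestine FXR induces the hormone FGF19, which signals to hepatocytes through the receptor FGFR4 and its co-receptor beta-Klotho, encoded by KLB, and lowers CYP7A1. ABCB11 exports bile salts into bile, and SLC51A is a subunit of an exporter on the opposite face of the cell.

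Total counts per library were 29766148 to 83539763. Levels are given as CPM after scaling with TMM (trimmed mean of M values), and as CPM per kb of exon where genes are compared with each other. The summed level of 7 hepatocyte and hepatoblast markers was 28129 to 30540 CPM at 0 min, 31174 to 31635 at 10 min, 30199 to 30542 at 30 min and 31440 to 32557 at 360 min. The 10 and 360 min libraries thus lay above those of 0 min. Of 4 bile duct markers KRT7 had 0 counts in all 12 libraries, while KRT19, SOX9 and EPCAM were expressed, and the list summed to 515 to 580 CPM. Of 3 leukocyte markers PTPRC had 0 counts in all libraries, and the list summed to 48.6 to 64.6 CPM, with CD68 at 48.6 CPM or more. The sum of 3 stellate cell and fibroblast markers was 51.4 to 57.8 CPM at 0 min, 51.3 to 55.6 at 10 min, 51.4 to 52.4 at 30 min and 58.2 to 62.9 at 360 min, highest in the 360 min libraries. Most of that sum was ACTA2 (47.7 to 60.5 CPM), and COL1A1 was at 0.161 CPM or less. Of 3 intestinal markers VIL1 alone exceeded 1 CPM (list sum 571 to 635), and 3 endothelial markers summed to 1.29 to 2.21 CPM. The part of these marker levels in the 360 min changes was not tested. Mitochondrial transcripts took 3.55% to 4.39% of the counts in 7 libraries (0 min replicate 1, all of 10 min, 30 min replicates 2 and 3, and 360 min replicate 3) and 2.52% to 2.74% in the other 5.

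KLB, NR1H4 and CYP8B1 were higher at 360 min than at 0 min, and NR0B2 was lower at 30 min. FGFR4, CYP27A1 and SLC51A passed the edgeR test at no time. FGF19, CYP7A1 and ABCB11 were at or close to 0 counts in every library and were not tested.

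KLB and NR1H4 were the members with the clearest change, and their promoter windows are shown for that reason. RefSeq windows from 250 bases before to 50 bases after a gene's start (GRCh38.p14) were used for 6 of the 10 genes. Capitals mark matches to the motifs searched, on either strand. The KLB window is chr4:39406680-39406979, plus strand, and the NR1H4 window is chr12:100503110-100503409, plus strand.
KLB promoter: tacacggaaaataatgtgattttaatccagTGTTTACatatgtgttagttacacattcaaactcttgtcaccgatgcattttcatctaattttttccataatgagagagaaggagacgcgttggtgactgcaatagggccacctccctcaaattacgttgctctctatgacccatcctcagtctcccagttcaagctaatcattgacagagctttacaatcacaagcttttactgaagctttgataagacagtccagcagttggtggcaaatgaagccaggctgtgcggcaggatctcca
NR1H4 promoter: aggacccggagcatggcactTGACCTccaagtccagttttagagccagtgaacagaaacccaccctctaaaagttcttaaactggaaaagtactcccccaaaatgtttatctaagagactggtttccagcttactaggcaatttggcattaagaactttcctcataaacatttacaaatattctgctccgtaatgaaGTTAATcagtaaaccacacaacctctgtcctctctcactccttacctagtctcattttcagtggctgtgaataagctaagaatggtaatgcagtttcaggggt

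The motifs were the nuclear receptor hexamer AGGTCA, the inverted repeat of that hexamer with a spacer of 1 base, the forkhead core TGTTTAC, the HNF1 hexamer GTTAAT and the sterol regulatory element TCACNCCAC, chosen with these sequences in view. The KLB window held the forkhead core 220 bases before the start, as did 3.42% of 35116 promoter windows. The NR1H4 window held the nuclear receptor hexamer on the minus strand 230 bases before the start and the HNF1 hexamer 53 bases before it. Those hexamers were found in 13.8% and 6.88% of the same windows. None of the 5 motifs, searched by their exact letters with N as any base, was found in the windows of FGFR4, CYP27A1, SLC51A and ABCB11. No window was at hand for FGF19, NR0B2 and CYP8B1, and CYP7A1 was left out of the search. Sites that depart from these letters were not searched for. The inverted repeat matched 0 of the 35116 windows and the sterol element 1.13% of them. A repeat that no window searched holds cannot tell these genes from others, and its absence says nothing about binding. GENCODE release 29 places the start of the NR1H4 gene at 100473708, upstream of the RefSeq window. The same holds for SLC51A (196211487, window from 196216284) and CYP27A1 (218781749, window from 218781897). The counts do not tell which start was used.

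**Figure D1:**
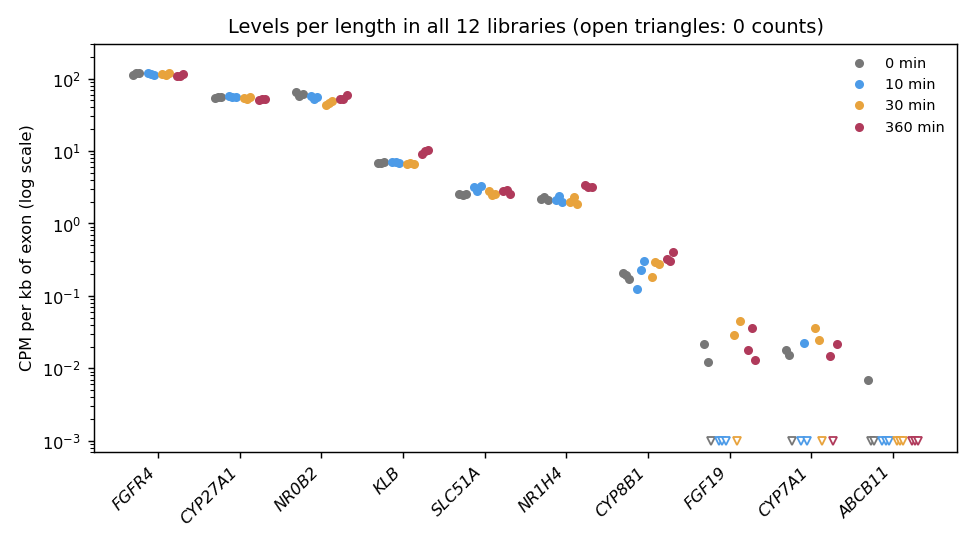
Levels of the 10 genes in CPM per kb of exon on a log axis, with 1 point per library, coloured by exposure time and ordered by mean level; open triangles at the bottom stand for libraries with 0 counts. FGFR4 lies above 100 in every library, while FGF19, CYP7A1 and ABCB11 lie below 0.05.

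Per length, FGFR4 was the most abundant member, with 116 ± 3.6 CPM per kb at 0 min (SD, n = 3). NR0B2 followed with 60.6 ± 3.6 and CYP27A1 with 54.8 ± 0.73 CPM per kb. KLB had 6.85 ± 0.11, SLC51A 2.54 ± 0.044, NR1H4 2.19 ± 0.11 and CYP8B1 0.189 ± 0.017 CPM per kb. At 0 min no neighbours in this order overlapped. The order of SLC51A and NR1H4 was the other way round at 360 min, when NR1H4 had 3.21 to 3.40 CPM per kb and SLC51A 2.58 to 2.93. NR0B2 and CYP27A1 overlapped at 10 and 360 min, and at 30 min NR0B2 lay below, with 42.5 to 48.9 against 52.5 to 56.0 CPM per kb. Among the 17553 tested genes with an annotated length, FGFR4 stood at percentile 98.3 of the 0 min level, KLB at 65.9, NR1H4 at 43.2 and CYP8B1 at 10.2.

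The ligand of the axis was close to undetected. FGF19 (ENSG00000162344, chromosome 11, 69698232 to 69704642, minus strand) had 22 counts over all 12 libraries. It had 2, 2 and 0 counts at 0 min and 0 in each 10 min library. The 30 min libraries had 6, 0 and 4, and the 360 min libraries 3, 3 and 2. The highest level was 0.112 CPM, from the 4 counts of 30 min replicate 3. If only counting error is allowed for, a count of 0 allowed up to 3 counts, or 0.0964 to 0.102 CPM in the 10 min libraries. A 0 can also stand beside clear counts in these data. AKR1C4, another gene of bile acid synthesis, had 39, 40 and 0 counts in the 30 min libraries. The floor is therefore not a firm upper bound. FGF19 did not pass the filter on low counts, so no change with exposure was detectable at this depth.

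CYP7A1, the rate-limiting enzyme (ENSG00000167910, chromosome 8, 58490178 to 58500236, minus strand), had 28 counts in all. Its counts were 2, 3 and 0 at 0 min and 0, 2 and 0 at 10 min. The 30 min libraries had 9, 5 and 0, and the 360 min libraries 3, 0 and 4. Each group held at least 1 library with 0 counts, and the groups overlapped. ABCB11, the bile salt export pump (ENSG00000073734, chromosome 2, 168915498 to 169031324, minus strand), had 2 counts in 0 min replicate 1 and 0 in the other 11 libraries. No fold change is given for these genes.

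KLB, the co-receptor that lets FGFR4 respond to FGF19 (ENSG00000134962, chromosome 4, 39406853 to 39451536, plus strand), did not pass the test at 10 or 30 min and rose at 360 min. It had 41.6, 41.1 and 42.4 CPM at 0 min and 43.5, 43.3 and 41.8 at 10 min. The 30 min libraries had 40.0, 40.9 and 40.7, and the 360 min libraries 56.0, 61.4 and 62.4. All 360 min libraries lay above all the others. KLB averaged 59.9 ± 3.4 CPM at 360 min and 41.7 ± 0.68 CPM at 0 min (SD, n = 3 each), a log2 fold change of 0.52 ± 0.04 (SE) or 1.44-fold (edgeR adjusted p = 5.82e-06). KLB ranked 47 of 17779 genes by p in that comparison. At 360 min against 30 min it was 0.56 ± 0.04 (adjusted p = 1.9e-06). The 95% interval of its log2 fold change was -0.05 to 0.13 at 10 min and -0.13 to 0.05 at 30 min against 0 min. It was called at 360 min under all 13 alternatives, between 0.49 and 0.57.

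FGFR4, the receptor (ENSG00000160867, chromosome 5, 177086886 to 177098144, plus strand), did not pass at any time. It had 519, 532 and 557 CPM at 360 min and 540, 571 and 569 CPM at 0 min, and the groups overlapped. The log2 fold change at 360 min was -0.06 ± 0.04 (adjusted p = 0.299), with a 95% interval of -0.15 to 0.02. At 10 and 30 min the intervals were -0.08 to 0.08 and -0.09 to 0.08. The co-receptor is set against the receptor library by library. KLB per kb was 8.56%, 9.17% and 8.90% of FGFR4 per kb in the 360 min libraries, and 6.11%, 5.71% and 5.92% in the 0 min libraries. The 10 and 30 min libraries lay between 5.68% and 6.22%. This ratio does not depend on library scaling, and an exact permutation test of 360 min against 0 min (two-sided, n = 3 each) gave p = 0.1, the smallest that 3 against 3 allows.

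**Figure D2:**
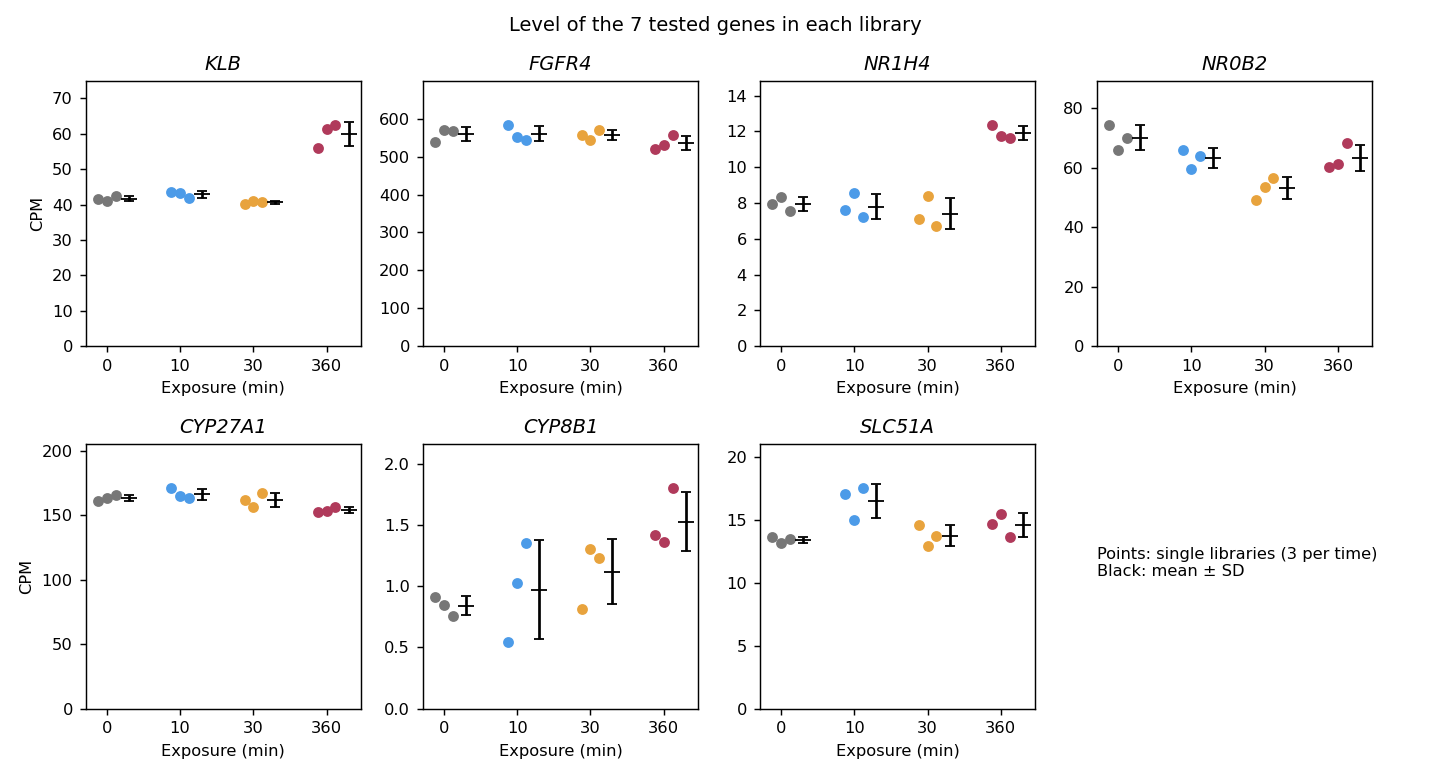
CPM of the 7 tested genes at each exposure time in min; points are single libraries, and the black marks are the mean ± SD of 3. KLB and NR1H4 are higher at 360 min, NR0B2 is lowest at 30 min, and FGFR4 and CYP27A1 differ little between times.

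NR1H4, which encodes the bile acid sensor FXR (ENSG00000012504, chromosome 12, 100473708 to 100564413, plus strand), rose at the same time as KLB. Its levels were 7.96, 8.33 and 7.53 CPM at 0 min and 7.60, 8.59 and 7.23 at 10 min. The 30 min libraries had 7.12, 8.38 and 6.71, and the 360 min libraries 12.3, 11.7 and 11.6. The early groups overlapped, and the 360 min libraries lay above all of them. It averaged 11.9 ± 0.39 CPM at 360 min and 7.94 ± 0.40 CPM at 0 min (SD, n = 3 each). The log2 fold change was 0.59 ± 0.09 (SE; edgeR adjusted p = 0.00094), and 0.68 ± 0.09 at 360 min against 30 min (adjusted p = 0.000222). Both calls held under all 13 alternatives. AC010200.2, annotated across NR1H4 on the opposite strand, had 0 counts.

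NR0B2, which encodes SHP, the repressor induced by FXR (ENSG00000131910, chromosome 1, 26911489 to 26913966, minus strand), took another course. It had 74.3, 65.9 and 69.8 CPM at 0 min and 66.0, 59.7 and 63.9 at 10 min. The 30 min libraries had 49.2, 53.5 and 56.6, and the 360 min libraries 60.1, 61.3 and 68.4. The 30 min libraries lay below all the others. NR0B2 fell at 30 min by 0.40 in log2 units (SE 0.06, edgeR adjusted p = 0.01), with a mean of 53.1 ± 3.7 CPM at 30 min and 70.0 ± 4.2 CPM at 0 min (SD, n = 3 each). It was higher at 360 min than at 30 min, by 0.26 ± 0.06 (adjusted p = 0.0122). At 360 min against 0 min it was -0.14 ± 0.06 (adjusted p = 0.15), which did not pass.

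The 30 min call of NR0B2 was lost without 0 min replicate 3 (adjusted p = 0.0512), and the call of 360 min against 30 min without 30 min replicate 1 (0.0539) or 360 min replicate 3 (0.0522). NR0B2 lies inside NUDC (26900238 to 26946862), which is on the opposite strand. NUDC was at -0.07 ± 0.05 at 30 min (adjusted p = 0.708). The use of strand in counting is not given in the sources used here.

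Of the synthesis enzymes, CYP27A1 (ENSG00000135929, chromosome 2, 218781749 to 218815293, plus strand) had 152, 153 and 156 CPM at 360 min and 161, 164 and 166 CPM at 0 min. These groups did not overlap, but the difference of -0.09 ± 0.03 did not pass the test (edgeR adjusted p = 0.0817). DESeq2 called it (adjusted p = 0.0424). At 10 and 30 min its libraries, between 157 and 171 CPM, overlapped those at 0 min.

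CYP8B1, the enzyme of the cholic acid branch (ENSG00000180432, chromosome 3, 42856005 to 42876165, minus strand), rose at 360 min from few counts. It had 97, 46 and 113 counts at 360 min and 34, 57 and 40 counts at 0 min. As levels these were 1.41, 1.36 and 1.80 CPM at 360 min and 0.911, 0.850 and 0.760 CPM at 0 min. The groups did not overlap, and the log2 fold change was 0.87 ± 0.27 (edgeR adjusted p = 0.039), with a 95% interval of 0.29 to 1.45. The call was lost on the omission of any of the 6 libraries (0 min replicate 1 0.0702, 2 0.0952 and 3 0.119; 360 min replicate 1 0.0698, 2 0.0651 and 3 0.139, as adjusted p). The log2 fold change at 360 min lay between 0.73 and 0.93 over all 13 alternatives, these omissions included. At 10 min its 3 libraries spread from 0.545 to 1.35 CPM, and at 30 min from 0.815 to 1.30 CPM. ACKR2, which spans CYP8B1 on the opposite strand, was at -0.39 ± 0.28 at 360 min (adjusted p = 0.383).

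SLC51A, the exporter subunit (ENSG00000163959, chromosome 3, 196211487 to 196243178, plus strand), had its highest mean level at 10 min. It had 17.0, 15.0 and 17.5 CPM at 10 min and 13.6, 13.2 and 13.5 CPM at 0 min, so the groups did not overlap. The log2 fold change of 0.30 ± 0.08 did not pass the edgeR test (adjusted p = 0.189), and DESeq2 gave an adjusted p of 0.0488. All 10 min libraries had a mitochondrial share above 3.5%, and at 0 min only replicate 1 did. With a term for a high or low share SLC51A was still not called. That term overlaps in part with the 10 min group, and the part of the share in the value was not tested further. It had 14.6, 12.9 and 13.7 CPM at 30 min and 14.6, 15.5 and 13.6 CPM at 360 min. PCYT1A, which overlaps SLC51A on the opposite strand, was at -0.02 ± 0.03 at 10 min (edgeR adjusted p = 0.884). At 360 min against 0 min PCYT1A was called higher, at 0.15 ± 0.03 (edgeR adjusted p = 0.00543). The part of PCYT1A reads in the SLC51A counts was not tested.

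**Figure D3:**
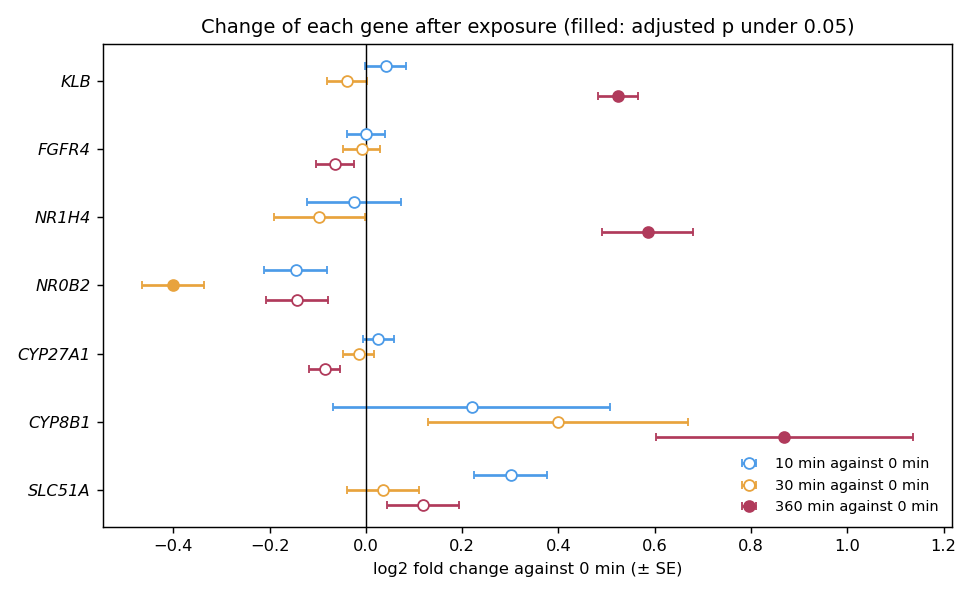
Log2 fold change of each gene against 0 min with its SE (x axis) at 10, 30 and 360 min; filled points have an adjusted p under 0.05. NR0B2 at 30 min and KLB, NR1H4 and CYP8B1 at 360 min are filled.

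Set beside all genes tested, 3 of the 7 tested members were called at 360 min, all higher, while 18.1% of 17779 genes were called and 8.89% were called higher. The median log2 fold change was 0.12 over the 7 members and 0.00054 over all genes. At 30 min 1 of 7 was called, lower, against 0.765% of all genes, of which 0.585% were lower. At 10 min edgeR called 0 of 7, against 0.0169% of all genes. DESeq2 called 1 member and 175 genes in all. An unadjusted p under 0.05 was found for 2 members and for 10.9% of all genes. At 30 min against 10 min edgeR called 0 of 7 (0.574% of all genes), and DESeq2 called NR0B2 alone among the members and 291 genes in all. An unadjusted p under 0.05 was found for 2 members and for 11.9% of all genes. At 360 min against 30 min 3 of 7 were called, all higher (22.7% of all genes, 11.4% higher). The groups did not overlap for 1 of 7 members at 10 min (15.5% of all genes), 2 at 30 min (14.5%) and 4 at 360 min (35.6%) against 0 min. They did not overlap for 3 at 30 min against 10 min (17.4%) and 5 at 360 min against 30 min (39.8%). The 3 comparisons with 0 min share their untreated libraries. The members, and the lists described below, were chosen with earlier results of these data known. A called share above that of all genes may reflect that choice in part, which was not tested.

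Among the genes whose log2 CPM most resembled KLB over the 12 libraries were STARD4, a cholesterol carrier (Pearson r = 0.987), and LRIG1, a negative regulator of receptor tyrosine kinases (r = 0.981). They were picked from 12435 genes whose log2 CPM averaged 1 or more. STARD4 had 47.9, 50.4 and 53.4 CPM at 360 min and 32.8, 33.02 and 32.8 CPM at 0 min. Nearest to NR1H4 were COBLL1 (r = 0.984), the proteasome subunit gene PSMD11 (r = 0.979) and LYAR, a nucleolar protein gene (r = 0.979). These values describe 12 libraries in which the groups differ, and each named gene has the step at 360 min that the plot of patterns shows.

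**Figure D4:**
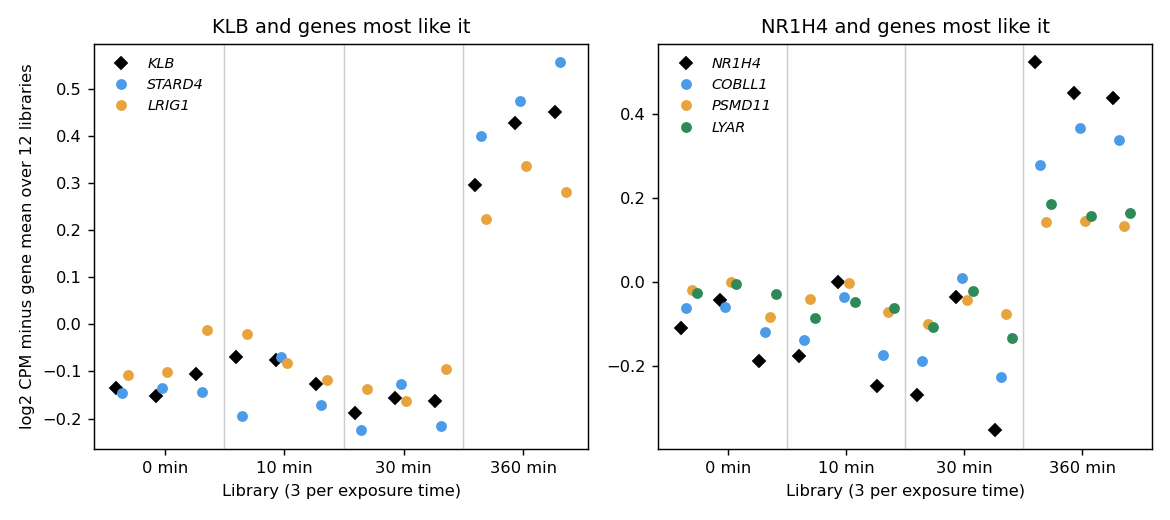
Log2 CPM minus the gene's mean over all libraries (y axis) in the 12 libraries grouped by exposure time (x axis), for KLB and NR1H4 (black diamonds) and genes most like each (circles). In every gene shown the 360 min libraries lie above all others.

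Among 12 tested genes of the other bile acid synthesis enzymes, 2 rose and 1 fell at 360 min; their median was 0.07 in log2 units, against 0.00054 for all genes. Of all genes 18.1% were called at 360 min and 8.89% were called higher. AKR1D1, the steroid reductase that saturates the sterol ring, had 18.6, 18.3 and 19.3 CPM at 360 min and 13.6, 13.1 and 13.8 CPM at 0 min. It rose by 0.47 ± 0.06 (edgeR adjusted p = 0.000174). BAAT, which conjugates bile acids to glycine and taurine, rose by 0.75 ± 0.18 (adjusted p = 0.0126) at a level of 1.71 ± 0.244 CPM at 360 min and 0.999 ± 0.080 CPM at 0 min (SD, n = 3 each). Its call was lost without 360 min replicate 2 (adjusted p = 0.057). SLC27A2, a fatty acid and bile acid CoA ligase, fell by 0.25 in log2 units (SE 0.06, adjusted p = 0.00927). AMACR, a racemase of side chain shortening, was at -0.18 ± 0.06 (adjusted p = 0.0733). CYP7B1 and CH25H had 0 counts in all libraries, and CYP46A1 had 9 in total.

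Of 9 tested transporters, 2 rose and 1 fell at 360 min, with a median of 0.03, where 18.1% of all genes were called and 8.89% higher. ABCC3, an exporter on the blood side, fell by 0.21 in log2 units (SE 0.04, adjusted p = 0.00463). The sterol exporter subunit ABCG8 was at 0.21 ± 0.06 (adjusted p = 0.0211) and the lipid flippase ATP8B1 at 0.18 ± 0.05 (adjusted p = 0.0247). Each was called under 7 of 13 alternatives. The 3 calls became 1 without a filter, with the compared groups alone, and without 360 min replicate 1 or 3. Both were also lost without 0 min replicate 1 (adjusted p = 0.0516 for ABCG8 and 0.1 for ATP8B1). ABCG8 was lost without 0 min replicate 2 (0.0785) and ATP8B1 without 360 min replicate 2 (0.116). ABCC2, the canalicular conjugate pump, was at 0.12 ± 0.05 (edgeR adjusted p = 0.104). It was called under 3 of 13 alternatives: DESeq2 (adjusted p = 0.0392), the mitochondrial share term (0.0372) and the omission of 0 min replicate 1 (0.0105). SLC51B, the partner subunit of SLC51A and named for that role after its values were seen, was at -0.14 ± 0.11 (adjusted p = 0.41). The uptake transporter SLC10A1 had 8 counts in all, and SLC10A2 and SLCO1B1 had 0.

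Nuclear receptors and cofactors that act with FXR or on CYP7A1 moved in both directions. At 360 min 3 of 15 tested rose and 4 fell, with a median of 0.01, and at 30 min 0 rose and 3 fell. The shares of all genes called were 18.1% at 360 min, with 8.89% higher, and 0.765% at 30 min, with 0.585% lower. The 3 that fell at 30 min were the same 3 genes that rose at 360 min. FOXA2, a pioneer factor of hepatocytes, had 27.1, 25.9 and 26.7 CPM at 30 min and 31.5, 31.5 and 33.7 CPM at 0 min, and fell by 0.28 (SE 0.04, edgeR adjusted p = 0.0056). At 360 min it had 37.7, 37.8 and 39.6 CPM and was 0.25 ± 0.04 above 0 min (adjusted p = 0.00102). HNF4A, a master regulator of hepatocyte genes, was at -0.17 ± 0.03 at 30 min (adjusted p = 0.0381) and at 0.16 ± 0.03 at 360 min (adjusted p = 0.00493). MAFG, a repressor of bile acid enzymes induced by FXR, was at -0.22 ± 0.04 at 30 min (adjusted p = 0.041) and at 0.30 ± 0.04 at 360 min (adjusted p = 0.000536). The 30 min calls of HNF4A and MAFG were each lost under 7 of 13 alternatives, among them 5 single omissions each: all of those but 0 min replicate 1 for HNF4A, and all but 30 min replicate 3 for MAFG. That of FOXA2 was lost with the compared groups alone (adjusted p = 0.0607). NR1I2, the xenobiotic receptor PXR, fell at 360 min by 0.30 (SE 0.05, adjusted p = 0.00208). RXRA, the dimer partner of FXR and named for that role after its values were seen, fell by 0.12 (SE 0.03, adjusted p = 0.0181). Its call was lost without 0 min replicate 2 (0.0597), 360 min replicate 1 (0.0643) or 360 min replicate 2 (0.0565), and without a filter (0.0824). The remaining genes called lower, NR1H3 and PPARGC1A, fell by more than RXRA and are also named after their values were seen. They were at -0.22 ± 0.05 (edgeR adjusted p = 0.00548) and -0.25 ± 0.08 (adjusted p = 0.0417).

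Of 12 tested genes known as FXR targets, 4 rose and 1 fell at 360 min, with a median of 0.16, beside 18.1% of all genes called and 8.89% called higher. The fibrinogen chain genes were 3 of the 4. FGB rose by 0.31 ± 0.05 (edgeR adjusted p = 0.000587), FGG by 0.19 ± 0.03 (0.00106) and FGA by 0.26 ± 0.04 (0.00114). FGA averaged 181 ± 7.34 CPM at 360 min and 151 ± 3.52 CPM at 0 min (SD, n = 3 each). PLTP, a phospholipid transfer protein, fell by 0.19 (SE 0.04, adjusted p = 0.00976).

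Around FGFR4, 3 of 11 tested receptors, co-receptors and adaptors rose and 3 fell at 360 min, with a median of -0.02, while 18.1% of all genes were called and 8.89% were higher. FGFR3, another FGF receptor, had 250.2, 250.2 and 257 CPM at 360 min and 340.2, 322 and 325 CPM at 0 min. It fell by 0.38 (SE 0.04, edgeR adjusted p = 2.86e-05). STAT3, a transcription factor that cytokine and growth factor receptors activate, fell by 0.42 (SE 0.04, adjusted p = 9.03e-06). The Ras exchange factor SOS1 rose by 0.43 ± 0.04 (adjusted p = 3.85e-05) and the docking protein FRS2 by 0.27 ± 0.06 (adjusted p = 0.00678). The remaining called genes of this list, named after their values were seen, were FGFR1 and FGFRL1. FGFR1 was at 0.21 ± 0.05 (adjusted p = 0.0123) and FGFRL1 at -0.17 ± 0.05 (adjusted p = 0.0237). KL, the Klotho co-receptor of the related hormone FGF23, and the hormone FGF21 had 2 counts each in all libraries.

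**Figure D5:**
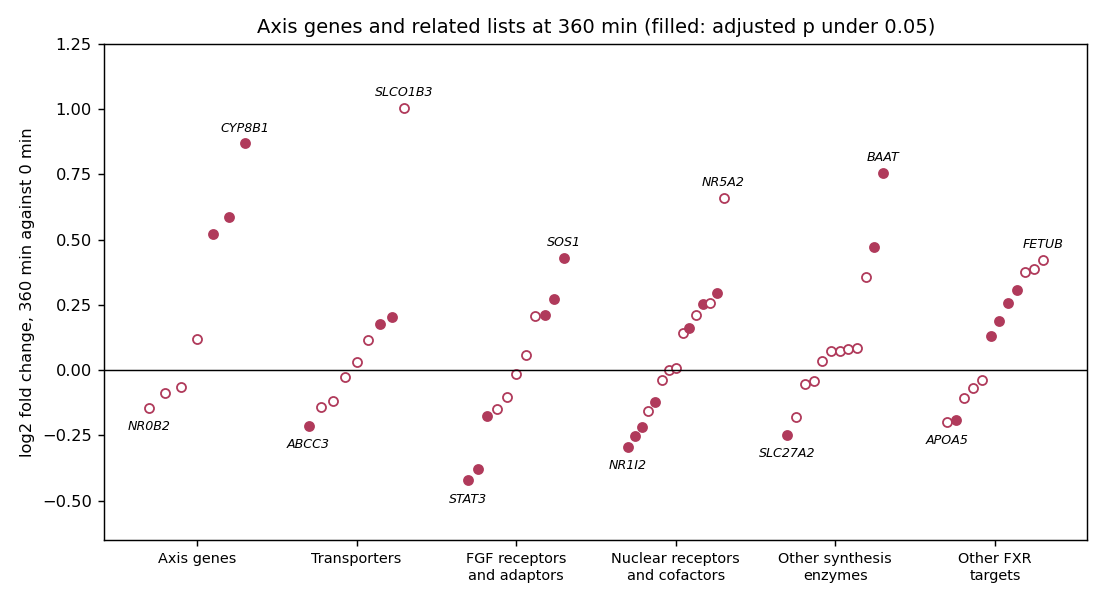
Log2 fold change at 360 min against 0 min (y axis) of the 7 tested axis genes and of 5 lists of related genes, sorted within each list; filled points have an adjusted p under 0.05, and the lowest and highest gene of each list are named. Each list other than the axis genes holds called genes on both sides of 0.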

How the data were processed

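The authors deposited whole-number read counts per gene for 12 libraries, whose columns carry the sample titles. The submitters' processing notes name HISAT2, DESeq2 and the build GRCh38. Tool versions, the program that counted reads and its strand setting: not given in the sources used here. Gene positions and exon lengths came from GENCODE release 29 (GRCh38), in which 58394 of 60612 identifiers (96.3%) were found.

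Counts were tested with edgeR 4.0.16 in R 4.3.3. After filterByExpr, 17779 genes were scaled by TMM (factors 0.981 to 1.01) and fitted by quasi-likelihood with 1 coefficient per group, 8 residual degrees of freedom and a biological coefficient of variation of 9.72%. Calls required p under 0.05 after Benjamini-Hochberg adjustment over all genes tested, two-sided. The SE is the absolute log2 fold change divided by the square root of F. CPM use the totals of the tested genes. The script was tested on simulated data. Alternatives were DESeq2 1.42.0, other scalings, no filter, the compared groups alone, a replicate block, a mitochondrial share term and the omission of each library. The share term marks each library as high or low, split at the widest gap in the share. Replicates are biological per the labels. Counts of 0 were read against a floor of 3 counts, which covers counting error only.

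All members are named, with the 4 genes of smallest p at 360 min in each of 5 lists; exceptions are marked. The 3 genes of highest Pearson correlation are named for the 2 members of smallest p whose log2 CPM averages 1 or more; 1 of these genes is not reported here. The members and lists were chosen with earlier results of these data known.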

Additional observations from a re-analysis of the deposited data

How the results depend on the processing

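The count of called members kept within 1.5 times of its value under the alternatives run, except in these. DESeq2 called 1 member at 10 min against 0 min and 1 at 30 min against 10 min, where edgeR called 0. Over the omission of single libraries the count was 0 to 1 at 30 min, 2 at 360 min and 2 to 3 for 360 min against 30 min. At 360 min the count was 2 without a filter, with CYP8B1 lost (adjusted p = 0.0528), and 4 with the mitochondrial share term, with NR0B2 added (adjusted p = 0.0268). DESeq2 also gave 4 at 360 min against 0 min, with CYP27A1 added (adjusted p = 0.0424). Over all genes, single omissions gave 1 to 25 calls at 10 min, 61 to 163 at 30 min and 2281 to 2714 at 360 min, against 3, 136 and 3215, and DESeq2 gave 175, 276 and 3447. For 30 min against 10 min DESeq2 gave 291 and the omissions 39 to 83, against 102.

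The log2 fold changes that turned sign were all of values that were not called, and the cause was not tested. FGFR4 at 10 min turned with total-count scaling (-0.024), no filter (-0.013), the share term (-0.00163) and DESeq2 (-0.00300), and ranged from -0.030 to 0.018 over single omissions. At 30 min FGFR4 ranged from -0.034 to 0.0075 over the omissions. For 30 min against 10 min it turned with total-count scaling (0.014) and no filter (0.0095), and ranged from -0.027 to 0.022. CYP8B1 turned at 10 min with the share term (-0.062). Its omissions gave -0.093 to 0.50 at 10 min and -0.10 to 0.49 for 30 min against 10 min. Those of NR1H4 gave -0.10 to 0.027 at 10 min and -0.17 to 0.0038 for 30 min against 10 min. At 30 min those of SLC51A gave -0.017 to 0.080 and those of CYP27A1 -0.039 to 0.0089.

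Same-numbered libraries correlated at -0.05 to 0.10 in their deviations from group means. The best match in another group had the same number in 18 of 36 cases. Unlinked numbers would give about 1 in 3, since each group has 3 libraries, and 18 of 36 lies above that share. These values do not show that same-numbered libraries were unlinked. The main fit did not take the number as a pairing, and a replicate block was run as an alternative. With the replicate block the counts of called members were 0, 1 and 3 at 10, 30 and 360 min against 0 min, 0 for 30 min against 10 min and 3 for 360 min against 30 min, as without it. Over all genes the block gave 6, 109, 3067, 75 and 3883 calls in the same order, and MAFG at 30 min was not called (adjusted p = 0.066). Depth limits FGF19, CYP7A1 and ABCB11, which no comparison could test, and CYP8B1.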
